A study of Mus musculus with 6 samples.

Results

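The 10 genes described here, in RNA of regulatory T (Treg) cells, encode receptors of the TNF receptor superfamily: Tnfrsf1a, Tnfrsf1b, Tnfrsf4, Tnfrsf8, Tnfrsf9, Tnfrsf11a, Tnfrsf18, Tnfrsf25, Cd27 and Fas. They were taken by symbol from a count matrix of 24421 genes, and all 10 had a row. RNA was sequenced from splenic CD4+YFP+ Treg cells of female C57BL/6 mice aged 8 to 11 weeks, with 3 WT libraries and 3 KO libraries. WT mice were Foxp3Cre, and KO mice were Foxp3Cre miR-142 fl/fl. Both groups thus carry the same YFP-Cre fusion expressed from the endogenous Foxp3 gene, so the YFP used for sorting and the recombinase are shared by the controls. In KO mice the miR-142 gene is removed wherever Foxp3 drives Cre, and these animals become systemically inflamed, so loss of the miRNA and the inflamed surroundings of the cells cannot be told apart. The sorted cells received no treatment before RNA extraction.

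Treg cells restrain other lymphocytes, and TNF receptor superfamily members tune their number, survival and suppressive activity. Members without a death domain, such as OX40 and GITR, recruit TRAF adaptors and cIAP ubiquitin ligases and feed into NF-κB. Members with a death domain, such as Fas and TNFR1, can instead assemble complexes that activate caspases or necroptosis kinases. The ligands are mostly trimeric membrane proteins on antigen-presenting cells and activated lymphocytes.

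The deleted gene gives rise to a pair of mature miRNAs, shown here because the receptors' 3′ UTRs were searched for their seeds. They lie on chromosome 11 at chr11:87756867-87756887 (5p) and chr11:87756903-87756925 (3p), plus strand, GRCm38.p6, and the sequences are RefSeq's. Capitals mark bases 2 to 8, the seed, or bases 3 to 9 where the 3p arm is read from its second base, a form with a shifted 5′ end.
mmu-miR-142a-5p: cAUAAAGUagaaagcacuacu
mmu-miR-142a-3p: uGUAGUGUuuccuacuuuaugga
mmu-miR-142a-3p read from base 2: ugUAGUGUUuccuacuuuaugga

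In their longest annotated 3′ UTR, 8 of the 10 receptors held no 7-base match to any of the 3 seeds, on the transcript's strand. A match was either the complement of the 7 seed bases or that of the first 6 followed by A. Among 10787 tested genes with a 3′ UTR, 13.5% held a miR-142-3p match, 16.2% a match to the shifted 3p seed and 24.03% a miR-142-5p match. The share of those genes without a match to any of the 3 seeds is not given here. Their median 3′ UTR was 1377 bases, against 953 bases over the 10 receptors. No receptor matched the 3p seed in its unshifted form. The study mutated 8-base matches to the shifted form in its Hif1a and Ifngr2 reporters, so the shifted form is also a miR-142-3p seed. Tnfrsf11a, the gene for RANK, held a pair of miR-142-5p matches in its last exon, exon 10, at chr1:105847086-105847092 and chr1:105847961-105847967. Tnfrsf1a, the gene for TNFR1, held a pair of matches to the shifted 3p seed in exon 10 at chr6:125362382-125362388 and chr6:125362463-125362469. All 4 lie on the plus strand of GRCm38 in the GENCODE vM21 annotation and are printed with their surroundings, the match in capitals.
Tnfrsf11a, upstream match: tgagaaagtctCTTTATAacattagtaacg
Tnfrsf11a, downstream match: agattattaaaACTTTATttttccataaaa
Tnfrsf1a, upstream match: tcaattatatcACACTAAtggatgaactgt
Tnfrsf1a, downstream match: ctcttgtaaatACACTAAacgtctaaaaat

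No 8-base match was present in any of the 10 receptors. A match of this kind is a stretch of letters and does not show that the miRNA acts there.

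The receptor genes are clustered in the genome. On chromosome 4, 6 of them lie within 10.8 Mb: Tnfrsf1b (chr4:145213463-145246870), Tnfrsf8 (chr4:145267137-145315164), Tnfrsf9 (chr4:150914562-150946102), Tnfrsf25 (chr4:152115934-152120119), Tnfrsf4 (chr4:156013843-156016612) and Tnfrsf18 (chr4:156026164-156028895). Tnfrsf4 and Tnfrsf18 are neighbours 9.55 kb apart, and Tnfrsf1b and Tnfrsf8 are 20.3 kb apart. Cd27 (chr6:125232622-125237010) and Tnfrsf1a (chr6:125349362-125362484) lie 112 kb apart on chromosome 6. Tnfrsf11a is at chr1:105780718-105847981 and Fas at chr19:34290666-34327772. An exon of Tnfrsf18 overlaps the antisense transcript Gm16008, and counting ignored strand, so reads of the pair cannot be told apart. The microRNA gene Mir8113 overlaps a Cd27 exon on the same strand and has a row of its own, with 4 to 11 counts per library.

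The libraries held 13883069 to 24042994 counted reads. A count of 3 corresponded to 0.123 to 0.227 CPM, that is counts per 1000000 counted reads on the normalized scale used below. The row of the targeted gene itself, Mir142, had 0 counts in all 6 libraries, WT included, and cannot show the deletion. Mir142b, annotated at the same locus, had 147, 101 and 105 counts in WT replicates 1 to 3 and 7, 5 and 5 counts in KO replicates 1 to 3 (log2 fold change -4.07, edgeR adjusted p = 0.00132, and -4.11 without KO replicate 1). Foxp3 lay between 536 and 595 CPM in WT and between 642 and 749 CPM in KO libraries, and Cd4 between 833 and 1043 CPM in all 6. Il2ra, the high-affinity IL-2 receptor chain, was at 726 to 799 CPM in WT and 2258 to 3073 CPM in KO libraries. The Treg label was thus met by the defining transcripts in every library.

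One library stood apart. In KO replicate 1 the summed CPM of 12 monocyte and macrophage markers was 2861, against 9.55 to 13.7 in WT and 20.3 to 79.1 in the other KO libraries, and each of the 12 was highest there. The 11 neutrophil markers in the matrix summed to 855 CPM, against 0.277 to 1.54 in WT and 8.25 to 47.7 in the other KO libraries, with 9 highest in KO replicate 1 and 4 at 0 in every WT library. The 9 B cell markers summed to 300.1 CPM, against 30.2 to 41.3 and 9.08 to 13.2. The 7 dendritic cell markers summed to 155 CPM, against 2.99 to 4.04 and 5.75 to 6.71. The 6 CD8 and NK markers summed to 78.4 CPM, against 20.3 to 24.3 and 44.6 to 55.8, and the 5 erythroid markers to 13.4 CPM, against 0.885 to 1.11 and 2.81 to 2.95. All 9 B cell and all 7 dendritic cell markers were highest in KO replicate 1. Of the CD8 and NK markers 4 were, and of the erythroid markers 2. Klrb1c was lower there (1.39 CPM) than in any WT library (2.38 to 3.94 CPM), and Eomes was higher in KO replicate 2 (42.0 CPM) than in KO replicate 1 (39.1 CPM). The fold changes tested below are therefore followed by their value without KO replicate 1, where the gene could still be tested. In bulk RNA, a change in the number of cells of a type and a change in RNA per cell cannot be told apart.

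To find how the receptors differed between miR-142-deficient and control Treg cells, each gene was tested with edgeR's quasi-likelihood test and Benjamini-Hochberg adjustment over 11658 genes, and called at a false discovery rate (FDR) below 0.05. Of the 10 receptors, 9 were above the expression filter (1 CPM in 3 libraries) in both groups, and transcripts of 5 of these 9 were higher in KO cells, none was lower, and 4 were not called. Tnfrsf11a was called as higher too, but it reached the filter in the KO libraries alone, so its test depended on its direction and it is described apart, giving 6 calls with it. Of all genes tested, 18.8% were called, 11.6% as higher and 7.27% as lower in KO, that is 1350 of the 2197 called genes as higher. Scaled by library size alone, 1064 of 2265 called genes were higher, with the same 6 receptors among them. The median log2 fold change (KO over WT) was 0.60 over the 9 and 0.68 over the 10, against 0.02 for all genes tested. The ranges of the 3 KO and the 3 WT libraries were apart for 5 of the 9 receptors, the same 5 that were called. They were apart for 41.0% of all genes tested. Calls and ranges rest on the same libraries, so the ranges are no further support for the calls. The ranges of Tnfrsf11a were apart too, which its passing the filter through the KO libraries alone had fixed. With 3 libraries a side, the smallest two-sided exact permutation p for a single gene is 0.1.

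Without KO replicate 1, 5 receptors remained called as higher, none as lower, and 17.3% of all genes were called. The receptor that dropped out was Tnfrsf11a, which was not tested there. The filter still required 3 libraries above 1 CPM, and no WT library reached that level. Leaving out any KO library thus excludes this gene whatever its level, and KO replicates 2 and 3 stayed above 1 CPM. The count of called receptors also depended on which WT library was left out. It was 4 without WT replicate 1, 3 without WT replicate 3 and 2 without WT replicate 2. The share of all genes called fell alongside, to 8.87%, 6.85% and 5.98% in the same order. Among the receptors, Cd27 and Tnfrsf9 were the pair called in each of these fits.

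**Figure D1:**
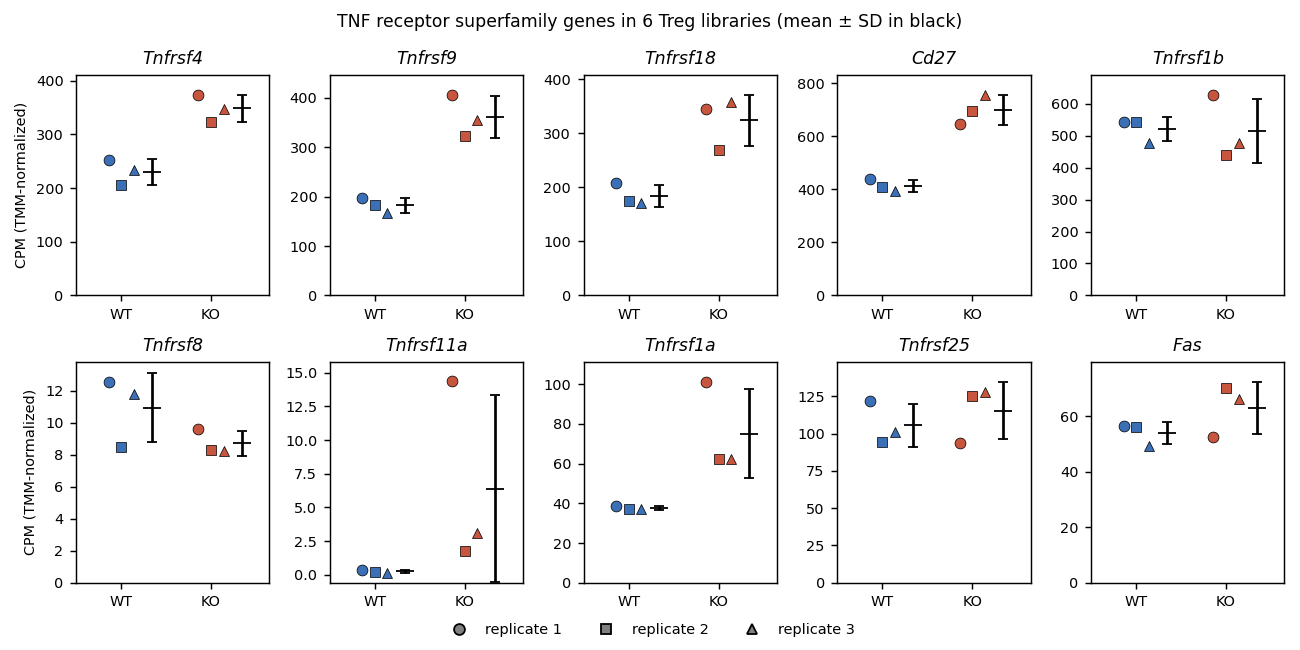
Normalized CPM of each receptor gene (vertical axis, one panel per gene) in the 3 WT and 3 KO libraries, with the mean ± SD in black. The KO points of Tnfrsf4, Tnfrsf9, Tnfrsf18, Cd27, Tnfrsf1a and Tnfrsf11a lie above all WT points, and KO replicate 1 stands far above the other libraries for Tnfrsf11a.

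Among the costimulatory receptors, Tnfrsf4 encodes OX40, which sustains the survival of activated T cells. Its level was 252, 205 and 233 CPM in WT replicates 1 to 3 and 374, 323 and 348 CPM in KO replicates 1 to 3. Every KO library exceeded every WT library, and KO replicate 1 was 1.11 times the mean of the other KO libraries. KO exceeded WT by a log2 fold change of 0.60 ± 0.11 (SE, n = 3 per group; edgeR adjusted p = 0.0109), and 0.53 without KO replicate 1 (adjusted p = 0.0180). The call was lost without WT replicate 2 (adjusted p = 0.0563) and without WT replicate 3 (adjusted p = 0.0518).

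Tnfrsf9, the gene for CD137, a receptor induced by antigen receptor signals, showed the smallest adjusted p of the 10. WT replicates 1 to 3 had 198, 183 and 167 CPM and KO replicates 1 to 3 had 407, 323 and 355 CPM. The lowest KO library was well above the highest WT library. The log2 fold change of 0.99 ± 0.12 (SE, n = 3 per group; edgeR adjusted p = 0.00264), or 1.98-fold, was 0.88 without KO replicate 1 (adjusted p = 0.00185).

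Tnfrsf18 encodes GITR, a receptor constitutively high on Treg cells. In WT replicates 1 to 3 it was at 208, 174 and 171 CPM, and in KO replicates 1 to 3 at 345, 270 and 357 CPM. The groups did not overlap, and KO replicates 1 and 3 were similar to each other and above KO replicate 2. Its log2 fold change was 0.81 ± 0.14 (SE, n = 3 per group; edgeR adjusted p = 0.00877), and 0.75 without KO replicate 1 (adjusted p = 0.0121). Leaving out WT replicate 2 ended the call (adjusted p = 0.0532).

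Cd27, whose product binds CD70 and supports T cell survival and memory, had the highest level per exon length of the 10 in both groups. Counts corresponded to 438, 410 and 394 CPM in WT replicates 1 to 3 and to 645, 696 and 757 CPM in KO replicates 1 to 3. Here KO replicate 1 was the lowest of the KO libraries, at 0.887 times the mean of the others, and still above every WT library. This gave a log2 fold change of 0.76 ± 0.10 (SE, n = 3 per group; edgeR adjusted p = 0.00371) and 0.80 without KO replicate 1 (adjusted p = 0.00234).

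Tnfrsf1b, the gene for TNFR2, the TNF receptor that predominates on Treg cells, was not called. Its values were 542, 542 and 476 CPM in WT replicates 1 to 3 and 628, 439 and 478 CPM in KO replicates 1 to 3. The groups overlapped, with KO replicate 1 the highest and KO replicate 2 the lowest of all 6. Its log2 fold change was -0.01 (95% confidence interval -0.36 to 0.33, edgeR adjusted p = 0.959), so a rise of the size seen for Tnfrsf4 lies outside the interval. Without KO replicate 1 it was -0.20 (interval -0.45 to 0.06).

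Tnfrsf8, the gene for CD30, which marks activated lymphocytes, was low in every library. Its values were 12.6, 8.49 and 11.8 CPM in WT replicates 1 to 3 and 9.60, 8.33 and 8.21 CPM in KO replicates 1 to 3. KO replicates 2 and 3 lay just below the lowest WT library, and KO replicate 1 lay among the WT libraries. A log2 fold change of -0.33 (95% confidence interval -0.79 to 0.13, edgeR adjusted p = 0.28) became -0.42 without KO replicate 1 (interval -0.91 to 0.08).

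Tnfrsf11a encodes RANK, the receptor for RANKL, best known from osteoclasts, other myeloid cells and dendritic cells. It had 6, 5 and 3 counts in WT replicates 1 to 3 (0.37, 0.205 and 0.166 CPM) and 259, 23 and 45 counts in KO replicates 1 to 3 (14.4, 1.74 and 3.08 CPM). All KO libraries were above all WT libraries, but KO replicate 1 was 5.96 times the mean of the other KO libraries. None of the WT libraries and all 3 KO libraries exceeded 1 CPM, so the gene was tested only through the group in which it was high. The fitted log2 fold change of 4.70 ± 0.93 (SE, n = 3 per group; edgeR adjusted p = 0.0155) is conditioned on that and is given as a description. Without KO replicate 1 the mean of the other KO libraries was 9.77 times the WT mean, with no test. The call was lost without any one WT library (adjusted p from 0.0559 to 0.0776). Leaving out any one KO library excluded the gene, because the filter still required 3 libraries above 1 CPM. That exclusion says nothing about its level in the remaining KO libraries. The myeloid markers given above were also highest in KO replicate 1, and their part in this result was not tested.

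Among the death domain receptors, Tnfrsf1a, the gene for TNFR1, was at 38.6, 37.0 and 37.0 CPM in WT replicates 1 to 3 and at 101, 62.1 and 62.2 CPM in KO replicates 1 to 3. The WT libraries were nearly identical, KO replicates 2 and 3 were nearly identical, and KO replicate 1 was 1.63 times their mean. KO over WT, the log2 fold change was 1.003 ± 0.20 (SE, n = 3 per group; edgeR adjusted p = 0.0148). It fell to 0.71 when KO replicate 1 was left out, with an adjusted p of 0.00341. The call was lost without any one WT library (adjusted p from 0.0584 to 0.0697). TNFR1 is expressed by many cell types, and the marker lists that were high in KO replicate 1 moved with its value there, which was not tested further.

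Tnfrsf25, the gene for DR3, the TL1A receptor whose engagement expands Treg cells, was not called. WT replicates 1 to 3 gave 122, 94.3 and 101 CPM and KO replicates 1 to 3 gave 93.4, 125 and 128 CPM. KO replicates 2 and 3 were above every WT library, and KO replicate 1 was below every WT library. The log2 fold change was 0.13 (95% confidence interval -0.23 to 0.48, edgeR adjusted p = 0.595), and 0.24 without KO replicate 1 (interval -0.04 to 0.52, adjusted p = 0.205).

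Fas, the receptor that triggers death of activated lymphocytes, also had KO replicates 2 and 3 above every WT library. Its level was 56.6, 56.2 and 49.3 CPM in WT replicates 1 to 3 and 52.5, 70.3 and 66.4 CPM in KO replicates 1 to 3. Only KO replicate 1 lay among the WT libraries. As a log2 fold change the difference was 0.22 (95% confidence interval -0.08 to 0.52, edgeR adjusted p = 0.264). With KO replicate 1 left out it was 0.32 (interval 0.07 to 0.57), which did not pass after adjustment (adjusted p = 0.0784).

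**Figure D2:**
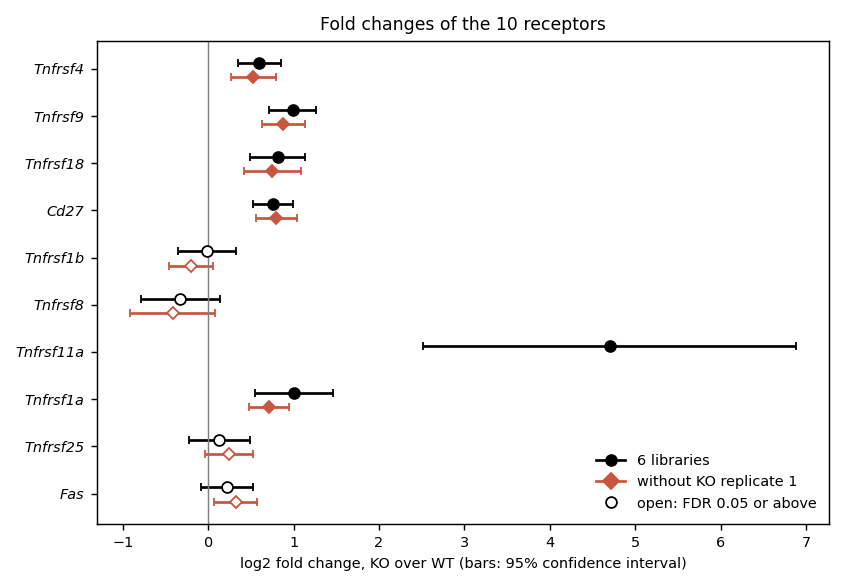
Log2 fold change (KO over WT, horizontal axis) of each receptor with its 95% confidence interval, over all 6 libraries (black circles) and without KO replicate 1 (red diamonds), filled where the FDR was below 0.05. The 5 receptors tested in both ways and called stay between 0.53 and 1.003, and Tnfrsf11a, at 4.70, was not tested without KO replicate 1.

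The spread between libraries differed by receptor. The coefficient of variation over the 3 KO libraries was 108% for Tnfrsf11a, 29.96% for Tnfrsf1a and 19.4% for Tnfrsf1b, and 7.28% for Tnfrsf4 and 8.05% for Cd27. In WT libraries it was 43.8% for Tnfrsf11a, on 3 to 6 counts, 19.8% for Tnfrsf8 and 2.41% for Tnfrsf1a. KO replicate 1 was above the mean of the other KO libraries for 7 of the 10 receptors, and below it for Tnfrsf25, Cd27 and Fas.

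Levels of different receptors were compared as CPM per kilobase of exon. In WT cells Cd27 stood at 178 ± 9.55 (SD, n = 3) and Tnfrsf4 at 169 ± 17.3, and their libraries overlapped. Tnfrsf1b at 136 ± 9.94 and Tnfrsf18 at 121 ± 13.5 overlapped each other and lay below both. Tnfrsf9 followed at 67.0, Tnfrsf25 at 46.4, Fas at 26.2, Tnfrsf1a at 14.5 and Tnfrsf8 at 3.17 CPM per kilobase, each without overlap with its neighbours in the order. Tnfrsf11a was last at 0.0412 CPM per kilobase.

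In KO cells the order began with Cd27 at 300.5 ± 24.2 CPM per kilobase (SD, n = 3), Tnfrsf4 at 255 ± 18.6 and Tnfrsf18 at 213 ± 31.2, with no overlap between these neighbours. By this exon length GITR transcripts ranked above TNFR2 transcripts in KO cells and below them in WT cells, although in WT cells the pair overlapped. Tnfrsf1b at 135 and Tnfrsf9 at 133 CPM per kilobase could not be separated in KO cells. Tnfrsf25 was next at 50.7, followed by Fas at 30.6 and Tnfrsf1a at 29.0, and by Tnfrsf8 at 2.52 and Tnfrsf11a at 1.07. The last pairs, Fas with Tnfrsf1a and Tnfrsf8 with Tnfrsf11a, overlapped through KO replicate 1 alone. Over KO replicates 2 and 3 they did not overlap, the mean of Tnfrsf11a was 0.403 and that of Tnfrsf8 was 2.39 CPM per kilobase, and Tnfrsf9 (125) and Tnfrsf1b (120.1) changed places while still overlapping. With the longest annotated transcript as the length, 8 of the 10 receptors kept their rank in each group. Tnfrsf18 and Tnfrsf1b then changed places in WT cells, as did Tnfrsf9 and Tnfrsf1b in KO cells. By that length Tnfrsf18 was above Tnfrsf1b in WT cells too (155 against 136, without overlap). The different rank of GITR and TNFR2 in WT and KO cells thus depended on the length used.

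**Figure D3:**
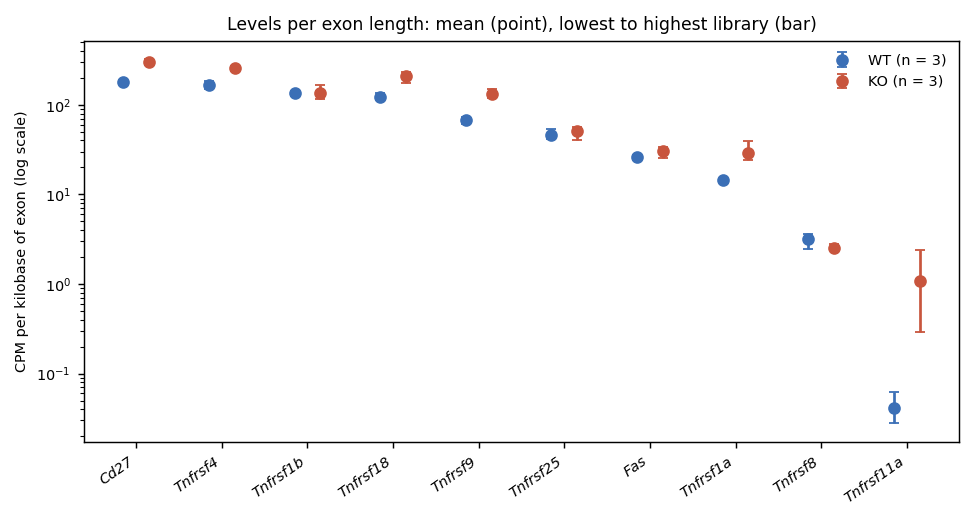
CPM per kilobase of exon (vertical axis, log scale) of each receptor in WT (blue) and KO (red) cells, ordered by the WT mean, with the mean as a point and the lowest to highest library as a bar. Cd27 and Tnfrsf4 are highest in both groups and Tnfrsf11a lowest, and the KO bar of Tnfrsf11a runs from 0.291 to 2.40.

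Ratios of receptor counts within a library do not depend on library scaling. The 3 given here were chosen after the levels were seen, so their p-values are descriptions only. How often other gene pairs have ratios without overlap is not given here. Tnfrsf1b had 14.1, 14.7 and 12.9 counts per Tnfrsf1a count in WT replicates 1 to 3, and 6.21, 7.07 and 7.69 in KO replicates 1 to 3. The balance of TNFR2 to TNFR1 transcripts was therefore lower in every KO library than in any WT library, KO replicates 2 and 3 included (13.9 ± 0.911 in WT and 6.99 ± 0.742 in KO, SD, n = 3 per group; exact two-sided permutation p = 0.1, the smallest this design allows, and 0.15 after adjustment over the 3 ratios).

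Tnfrsf9 had 0.784, 0.890 and 0.717 counts per Tnfrsf4 count in WT replicates 1 to 3 and 1.09, 0.998 and 1.02 in KO replicates 1 to 3. These groups did not overlap either (exact two-sided permutation p = 0.1, adjusted 0.15), and the ratio of CD137 to OX40 transcripts was higher in each KO library than in any WT library. Tnfrsf18 had 0.825, 0.848 and 0.734 counts per Tnfrsf4 count in WT and 0.922, 0.833 and 1.03 in KO replicates 1 to 3. There KO replicate 2 lay among the WT libraries (exact two-sided permutation p = 0.2, adjusted 0.2).

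**Figure D4:**
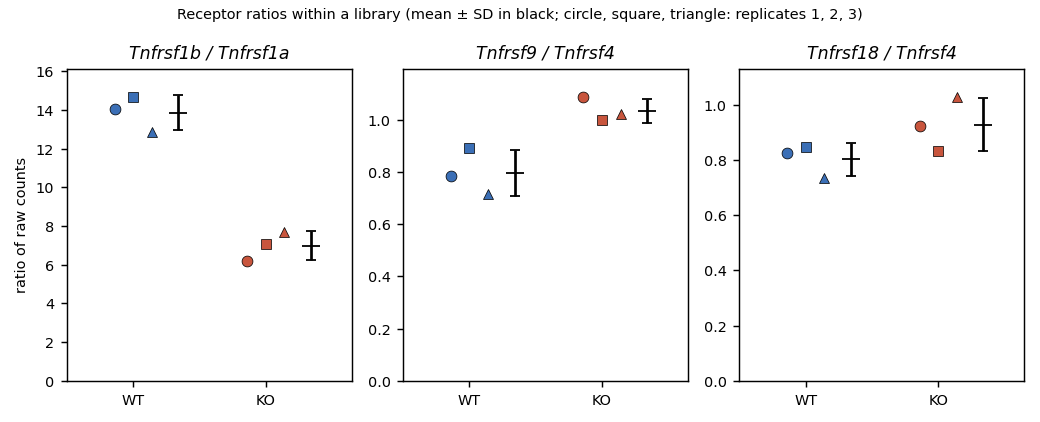
Ratio of the raw counts of a pair of receptors within each library (vertical axis), for WT (blue) and KO (red), with the mean ± SD in black. The Tnfrsf1b to Tnfrsf1a ratio lies between 12.9 and 14.7 in WT and between 6.21 and 7.69 in KO libraries, while the Tnfrsf18 to Tnfrsf4 ratios overlap.

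The genes whose log2 CPM followed Tnfrsf4 most closely over the 6 libraries were Rom1, Txndc5, an endoplasmic reticulum protein disulfide isomerase, and Arhgap21 (Pearson r = 0.997, 0.997 and 0.996). For Tnfrsf9 they were Tap2, a subunit of the peptide transporter for MHC class I, Penk, the enkephalin precursor, and Mgst3 (r = 0.9995, 0.9994 and 0.999). For Tnfrsf18 they were Gde1, Kctd17 and H2-T23, a non-classical MHC class I gene (r = 0.999, 0.997 and 0.997). The 6 points share the difference between groups, so these values are descriptions only.

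Of 12 TNF superfamily ligands tested, none was higher and 4 were lower in KO cells, with a median log2 fold change of -0.24. Of all genes tested, 11.6% were called as higher and 7.27% as lower. Fasl, the Fas ligand used by cytotoxic lymphocytes, had 7.76, 5.70 and 11.8 CPM in WT replicates 1 to 3 and 2.28, 2.20 and 1.03 CPM in KO replicates 1 to 3. All KO libraries were below all WT libraries, with a log2 fold change of -2.19 ± 0.39 (SE; edgeR adjusted p = 0.0112), and -2.40 without KO replicate 1.

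Tnfsf8, the CD30 ligand, was at 93.2, 93.8 and 112 CPM in WT replicates 1 to 3 and at 32.6, 61.4 and 42.0 CPM in KO replicates 1 to 3. Its log2 fold change was -1.14 ± 0.22 (SE; edgeR adjusted p = 0.0146), and -0.96 without KO replicate 1, and the call was lost without WT replicate 2 or 3. Tnfsf11, which encodes RANKL, was at 75.9, 58.5 and 78.6 CPM in WT replicates 1 to 3 and at 44.6, 39.0 and 56.9 CPM in KO replicates 1 to 3. The groups did not overlap, but its adjusted p of 0.0494 in edgeR (log2 fold change -0.60 ± 0.17, SE) passed in 1 of 6 fits that left out a library. Without KO replicate 1 it was -0.58 (adjusted p = 0.0686).

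Cd40lg, the CD40 ligand through which T cells help B cells, had no receptor among the 10. It was at 28.7, 28.5 and 47.1 CPM in WT replicates 1 to 3 and at 13.9, 16.5 and 14.9 CPM in KO replicates 1 to 3. The log2 fold change was -1.21 ± 0.22 (SE; edgeR adjusted p = 0.0111), or -1.16 without KO replicate 1. Cd40lg and Fasl were the ligands called whichever library was left out. Without KO replicate 1, 3 of 12 ligands were called, all lower, against 17.3% of all genes called in either direction. The ligand median was then -0.53.

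The TNFR1 and TNFR2 ligands missed the threshold. Tnf had 46.5, 36.1 and 42.9 CPM in WT replicates 1 to 3 and 89.8, 48.8 and 70.2 CPM in KO replicates 1 to 3. Lta, which encodes lymphotoxin alpha, had 80.3, 57.6 and 73.0 CPM in WT and 93.3, 87.3 and 99.0 CPM in KO replicates 1 to 3. KO libraries lay above WT libraries for both, with log2 fold changes of 0.74 (95% confidence interval 0.23 to 1.25, edgeR adjusted p = 0.0549) and 0.41 (interval 0.10 to 0.72, adjusted p = 0.0709). They were 0.50 and 0.39 without KO replicate 1 (adjusted p = 0.0897 and 0.0999).

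Ligands of the costimulatory receptors were scarce in Treg RNA. Tnfsf4, the OX40 ligand, had 12, 27 and 18 counts in WT and 10, 8 and 9 counts in KO replicates 1 to 3, and Tnfsf18, the GITR ligand, had at most 6 counts in a library. Cd70, the CD27 ligand, had 4 to 16 counts, and these 3 genes were below the filter. Tnfsf9, the CD137 ligand, was at 3.197 to 4.68 CPM in WT and 1.51 to 3.61 CPM in KO libraries (log2 fold change -0.47, interval -1.28 to 0.34, and -0.75 without KO replicate 1). Tnfsf15, which encodes the DR3 ligand TL1A, was at 1.604 to 1.97 CPM in WT and 1.23 to 3.11 CPM in KO libraries (log2 fold change 0.10, interval -0.82 to 1.02). Its highest value was in KO replicate 1, and without that library the sign turned, to -0.48 (interval -1.17 to 0.21).

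Of 18 further receptors of the superfamily, 9 passed the filter. Of these 9, 1 was lower and none was higher in KO cells, against 18.8% of all genes called in either direction. Their median log2 fold change was 0.17, and 0.06 without KO replicate 1. The lower one was Tnfrsf10b, a TRAIL receptor with a death domain, at 7.64, 7.99 and 12.2 CPM in WT and 5.66, 4.39 and 4.65 CPM in KO replicates 1 to 3. Its log2 fold change was -0.91 ± 0.24 (SE; edgeR adjusted p = 0.0396), and it was called in 1 of 6 fits that left out a library, the one without KO replicate 1 (log2 fold change -1.05). In that fit, where 17.3% of all genes were called, Tnfrsf23, a decoy receptor for TRAIL in the mouse, was called as higher too (log2 fold change 0.95, adjusted p = 0.0437). The count was 0 without any one WT library, where 5.98% to 8.87% of all genes were called. It was also 0 without KO replicate 2, where 2340 of 11447 genes were called.

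A few of the further receptors were far higher in KO replicate 1 than elsewhere. Tnfrsf21 had 34.4 CPM there, against 0.221 to 1.06 CPM in the other libraries, and Cd40, the receptor of Cd40lg on antigen-presenting cells, had 16.9 CPM against 0.205 to 0.530. Ltbr, the lymphotoxin beta receptor, had 16.0 CPM against 0.277 to 1.21, and Tnfrsf13c, the BAFF receptor of B cells, 17.9 CPM against 1.15 to 3.63. Tnfrsf21, Cd40 and Ltbr were below the filter and not tested, and Tnfrsf13c was not called (adjusted p = 0.0853). Tnfrsf13b, for TACI of B cells, did not stand far above the other libraries there. It was at 6.77 CPM in KO replicate 1, below the 7.54 to 9.67 CPM of WT libraries. That was still above the 5.30 and 5.41 CPM of KO replicates 2 and 3. These 5 genes were picked out after their values were seen.

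Among 12 TRAF and cIAP adaptor genes, 2 were higher and 2 lower in KO cells, with a median log2 fold change of 0.00. The share of all genes tested that were called was 18.8%. Birc2, the gene for the ubiquitin ligase cIAP1 that TNF receptors recruit through TRAF2, had 149, 181 and 190 CPM in WT replicates 1 to 3 and 380, 463 and 382 CPM in KO replicates 1 to 3. No KO library came near the WT range, and the log2 fold change was 1.24 ± 0.13 (SE; edgeR adjusted p = 0.00182), or 2.36-fold, and 1.27 without KO replicate 1. Its homologue Birc3, for cIAP2, was at 160 to 171 CPM in WT and 207 to 245 CPM in KO libraries (log2 fold change 0.42 ± 0.09, SE; edgeR adjusted p = 0.0226), with 0.45 without KO replicate 1. Traf5, an adaptor of OX40, GITR and CD27, was at 71.4 to 83.4 CPM in WT and 42.4 to 48.8 CPM in KO libraries (log2 fold change -0.80 ± 0.10, SE; edgeR adjusted p = 0.00347), with -0.81 without KO replicate 1. The fourth call, Traf3ip2, the gene for Act1 of IL-17 signalling (log2 fold change -0.52, adjusted p = 0.0468, and -0.46 without KO replicate 1), held in 1 of 6 fits that left out a library. Birc2 and Traf5 were called in all 6. Birc3 was lost without any one WT library, and the count was then 2, with 5.98% to 8.87% of all genes called. Without KO replicate 1, the calls were Birc2, Birc3, Traf5 and Traf1 (log2 fold change -0.50, adjusted p = 0.0464), with 17.3% of all genes called.

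Of 10 death domain pathway genes tested, 2 were higher and none lower, with a median log2 fold change of 0.004. This count is near the share of all genes tested that were called, 18.8%. Ripk3, the necroptosis kinase, was at 55.5 to 58.9 CPM in WT and 70.2 to 82.8 CPM in KO libraries, a log2 fold change of 0.43 ± 0.09 (SE; adjusted p = 0.0204). Siva1, which encodes a protein that binds the tail of CD27, was at 3.82 to 4.25 CPM in WT and 6.28 to 7.55 CPM in KO libraries (log2 fold change 0.82 ± 0.18, SE; edgeR adjusted p = 0.0236). The adaptors Tradd and Fadd, Casp8 and its inhibitor Cflar were not called. Both calls held without KO replicate 1 (0.39 for Ripk3 and 0.75 for Siva1), and the list median was then -0.07. Both calls were lost without any one WT library and without KO replicate 3, which left a count of 0. Without a WT library the share of all genes called also fell, to between 5.98% and 8.87%, and without KO replicate 3 it was 1511 of 11472 genes. The count was 4 without KO replicate 2, where 2340 of 11447 genes were called.

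Of 15 ubiquitin and kinase regulators, 1 was higher and 1 lower, against 18.8% of all genes called, with a median log2 fold change of 0.07. Ikbkb, the gene for the IκB kinase subunit of the canonical NF-κB pathway, was at 299.8 to 321 CPM in WT and 200.04 to 229 CPM in KO libraries (log2 fold change -0.51 ± 0.09, SE; edgeR adjusted p = 0.00987). It was -0.47 without KO replicate 1, and the call was lost without WT replicate 2 or 3. Tnip2, an A20-binding inhibitor of NF-κB, rose by 0.38 ± 0.10 on the log2 scale (SE; edgeR adjusted p = 0.0430), and its call was lost whichever library was left out (0.32 without KO replicate 1). The list held 1 call without any one KO library, where 1511 to 2340 of all genes were called. It also held 1 without WT replicate 1, where 8.87% were called. It held 0 without WT replicate 2 or 3, where 5.98% and 6.85% of all genes were called. Tnfaip3, the gene for A20, varied widely within groups, with 246, 1087 and 3030 CPM in WT replicates 1 to 3 and 941, 2123 and 809 CPM in KO replicates 1 to 3. It was not called, and it was named after its values were seen.

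**Figure D5:**
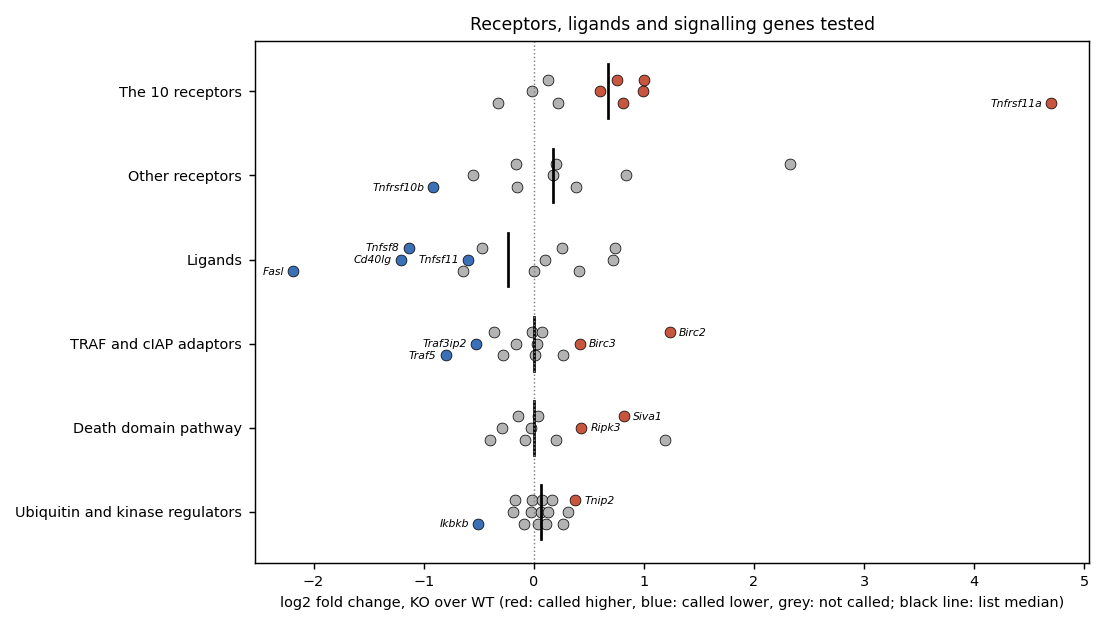
Log2 fold change (KO over WT, horizontal axis) of every tested gene in 6 lists, coloured red where called higher, blue where called lower and grey where not called, with each list's median as a black line. The median of the 10 receptors is 0.68 (0.60 without Tnfrsf11a) and that of the ligands -0.24, while the 3 signalling lists have medians between 0.00 and 0.07.

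Of the 13 called ligand, receptor and signalling genes outside the 10, 10 held no match to any of the 3 miR-142 seeds in the longest 3′ UTR. By seed, 1 held a 3p match, 1 a match to the shifted 3p seed and 3 a 5p match. The shares over tested genes with a 3′ UTR were 13.5%, 16.2% and 24.03%. The share of those genes without any match is not given here. Tnfrsf10b held a 3p and a 5p match, Tnfsf8 a 5p match, and Siva1 a 5p match and a match to the shifted 3p seed. Birc2, the called gene with the largest rise among them, held none. These matches describe annotated letters and were not tested for an effect.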

How the data were processed

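Single-end reads of 51 bases from TruSeq RNA v2 libraries of sorted Treg cells, 1 library per mouse, were aligned by the authors with HISAT to mm10 and counted per gene with featureCounts, ignoring strand. The authors deposited these raw counts, which were used unchanged. Tool versions are not given in the sources used here. Groups and replicate numbers come from the titles.

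Genes above 1 CPM in at least 3 libraries were kept, counts were scaled by TMM, and KO was compared with WT with glmQLFit and glmQLFTest in edgeR 4.0.16 (R 4.3.3), with Benjamini-Hochberg adjustment over 11658 genes and a threshold of 0.05. Standard errors are the log2 fold change divided by the square root of F, and confidence intervals use the test's degrees of freedom. CPM values use TMM-scaled library sizes. Fold changes of genes with few counts depend on edgeR's prior count. Simulated counts for this comparison started from these 11658 genes with the dispersion set to 0.04, and not all of them were scored. In them, 66 of 100 genes with a log2 change of 1 and 98 of 98 with a log2 change of 2 were called. There were 8 calls among 11374 unchanged genes. Whether these shares hold for the real libraries, where KO replicate 1 stood apart, was not tested.

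The receptors and the gene lists were chosen with earlier results of these data known. One gene of the death domain list is not reported here and was left out of its counts. Named genes were all 10 receptors, their ligands with counts, each called ligand and further receptor, up to 3 genes per direction with the smallest p among the called genes of each signalling list, and the 3 genes most correlated with Tnfrsf4, Tnfrsf9 and Tnfrsf18 (log2 of CPM + 0.5). Exon lengths, positions and 3′ UTRs are from GENCODE vM21 and miRNA sequences from RefSeq. Of 24421 symbols, 23376 matched GENCODE. The shifted 3p seed, the count ratios and the gene values without KO replicate 1 were added after seeing the data. DESeq2 1.42.0 and other alternatives are given in the closing section.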

Additional observations from a re-analysis of the deposited data

How the results depend on the processing

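Each count was recomputed under 14 alternatives. The 10 receptors gave 6 calls with RLE scaling, library size alone, DESeq2, all 3 edgeR tests together, no filter, filterByExpr and the replicate block. Tnfrsf11a was among these 6 each time, and it passed the main filter through the KO libraries alone. In the main fit the other 9 receptors gave 5 calls. Over all genes, 2198 of 11658 were called with RLE scaling, 2248 of 12266 with filterByExpr and 1606 of 11658 with the replicate block. At an FDR below 0.01 there were 3 receptor calls, with 686 of 11658 genes called. When a library was left out there were 2 to 5, with 691 to 2340 genes called. With a KO library left out, 9 receptors were tested. All calls were as higher in KO. At an FDR below 0.01 the calls were 0 for the further receptors, 0 for the ligands, 2 for the adaptors, 0 for the death domain genes and 1 for the ubiquitin and kinase regulators. DESeq2 called 2 of 9 further receptors, 6 of 12 ligands and 4 of 10 death domain genes, counting both directions. It called 2863 of all 11658 genes. Without a filter there were 0 further receptors, 1 death domain gene and 1 ubiquitin or kinase regulator, with 1776 of 17585 genes called. Library size alone or the 3 edgeR tests together also left 1 ubiquitin or kinase regulator, with 2265 and 1996 of 11658 genes called. Leaving out a library gave 0 to 2 further receptors, 2 to 4 ligands, 2 to 4 adaptors, 0 to 4 death domain genes and 0 to 1 ubiquitin and kinase regulators. Library size alone called 1064 of 2265 genes as higher, against 1350 of 2197 with TMM, and moved the median of all genes from 0.02 to -0.06. DESeq2 called 2863 genes, an FDR below 0.01 left 686, and fits without 1 library called 691 to 2340. Cd27 and Tnfrsf9 were called in all 14 alternatives, while Tnfrsf8, Tnfrsf25 and Fas were called in none. The log2 fold change of Tnfrsf1b ranged from -0.20 to 0.10 when a library was left out and turned from -0.01 to 0.015 without WT replicate 2, 0.096 without KO replicate 2 and 0.022 without KO replicate 3, never past the threshold. The cause of these shifts was not tested. With 8-base matches only, 0 receptors held a 5p or shifted 3p match, and all annotated 3′ UTRs gave the same counts as the longest.

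Libraries with the same replicate number did not deviate together (correlations 0.080, -0.0056 and -0.195), and not every library correlated best with its own number. With 3 libraries a side, these correlations cannot decide whether same-numbered samples share a litter or day. The labels do not say whether they do. The replicate block left 6 receptors called, 0 further receptors, 5 ligands, 2 adaptors, 1 death domain gene and 1 ubiquitin or kinase regulator. It called 1606 of 11658 genes in all.

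Tnfrsf11a, Tnfsf4, Tnfsf18 and Cd70 rested on few counts in WT libraries, and 3 libraries a side leave single genes no exact p below 0.1.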
